A study of Gallus gallus with 3 samples.

Results

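Transcripts of 9 neuropeptide precursors and of RAMP1, a receptor accessory protein, were followed in the spinal neural tube of the chicken embryo, the epithelium that forms the spinal cord. The genes were chosen by symbol: the precursors HCRT, UTS2B, NPY, SST, TAC1, PENK, VIP, ADCYAP1 and CALCA, and RAMP1. All 10 were found, each on 1 row of a table of 15916 genes. HCRT, UTS2B and RAMP1 led the choice because their values at the later stage were known to be high, so the differences between stages below are a description and no test was run on them. The later stage, HH19 in the Hamburger-Hamilton series, was represented by 1 library of wild-type White Leghorn embryos. The earlier stage, HH14, was represented by 2 libraries of the same strain and genotype. Each library was made from polyadenylated RNA of neural tube pieces pooled from about 25 embryos, cut at brachial level and reaching into the thoracic region. Lateral plate, endoderm and aorta were dissected away, and paraxial mesoderm, notochord and surface ectoderm were pulled off after trypsin. The label of the HH19 library describes the dissection in the words used for HH14.

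Neuropeptides are made as longer precursor proteins, cut by proprotein convertases, trimmed and often amidated, and stored in dense-core vesicles, from which neurons release them onto G protein-coupled receptors. RAMP1 is a membrane protein with a single transmembrane segment that joins the receptor CALCRL. The pair is the receptor of calcitonin gene-related peptide (CGRP), which comes from the CALCA gene, as calcitonin does by alternative splicing. In the spinal cord of mammals CGRP and several of the other peptides are made by motor neurons, interneurons or sensory fibres, whereas orexin, the product of HCRT, is best known from the hypothalamus.

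Expression was given as TPM, a share of all transcripts normalized for gene length, so levels of different genes can be set side by side. The authors' table holds 1 HH19 column and a single HH14 column for both HH14 libraries, and a value given simply at HH14 is from that column. Its values step by whole reads, as if 1 read had been added to each gene and library, and from these steps the TPM of each HH14 library was recovered for 15520 genes (97.5%), including all 10 studied here. The labels do not say which library is which, and they are called HH14-A and HH14-B. For a gene of given length, 1 read was worth 1.28 times as much TPM in HH14-A as in HH14-B. The recovered genes held 18.7 M reads at HH19, 17.6 M in HH14-A and 21.6 M in HH14-B. They held 59.7% of the TPM at HH19, so these totals are not the depths of the libraries. Read numbers below leave out the added read and are the smallest that give whole reads in every library. TPM values include the added read, except where the worth of 3 reads is given. Intervals are exact 95% Poisson intervals of the reads, put on the TPM scale, and cover counting error only. Genes averaging 1 TPM or more over the 3 libraries are referred to as measurable. Of these, a gene counts as higher or lower if the log2(TPM + 1) values of HH19 and of the HH14 column lay 1 or more apart, and otherwise as within the limit. That scale understates the change of low genes. A gene under 1 TPM in either column could be measurable only through the other column, so any call could go only toward that other column. Neural tube markers were abundant in every library, with 8 recovered markers summing to 1249 TPM at HH19, 730 TPM in HH14-A and 1066 TPM in HH14-B.

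HCRT (ENSGALG00000011485), the precursor of the orexins, which regulate wakefulness and feeding, was 7.76 times as abundant at HH19 as in the HH14 column. It had 14.2 TPM (interval 12.2 to 16.5, 171 reads) at HH19, against 1.83 TPM (1.15 to 2.78, 20 reads) in HH14-A and 1.84 TPM (1.22 to 2.66, 26 reads) in HH14-B. The HH14 libraries gave nearly the same value, and HH19 lay far above both. The log2 difference was 2.43 from the HH14 column and 2.42 from HH14-B alone. As in any bulk sample, more cells with the transcript and more RNA per cell cannot be told apart.

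UTS2B (ENSGALG00000007222) encodes a urotensin II-related peptide, a family known in zebrafish from cerebrospinal fluid-contacting neurons of the spinal cord. At HH19 it had 15.9 TPM (14.3 to 17.8, 324 reads), against 0.775 TPM (0.447 to 1.27, 14 reads) in HH14-A and 2.98 TPM (2.35 to 3.74, 73 reads) in HH14-B. HH19 lay above both HH14 libraries, but these also stood apart, HH14-B being 3.85 times as high as HH14-A. The fold at HH19 was therefore 20.6 over HH14-A and 5.34 over HH14-B, with 8.48 over the HH14 column (log2 difference 2.56).

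RAMP1 (ENSGALG00000003821) had 25.6 TPM (23.4 to 27.8, 534 reads) at HH19, against 2.57 TPM (1.92 to 3.37, 50 reads) in HH14-A and 4.52 TPM (3.74 to 5.42, 114 reads) in HH14-B. It was thus 7.21 times as high at HH19 as in the HH14 column (log2 difference 2.55), and 5.66 times as high as in the nearer library, HH14-B. Its ligand gene CALCA (ENSGALG00000006054) was the most abundant of the 10. CALCA had 59.1 TPM (56.0 to 62.3, 1364 reads) at HH19, against 13.3 TPM (11.8 to 14.9, 290 reads) in HH14-A and 24.6 TPM (22.8 to 26.5, 689 reads) in HH14-B. Its fold over the HH14 column was 3.12 (log2 difference 1.59), and over HH14-B 2.41. In both genes the 3 intervals were separate, with HH19 highest and HH14-A lowest.

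CALCRL, the receptor that RAMP1 joins, did not share this order. It had 5.88 TPM at HH19, against 10.2 TPM in HH14-A and 4.98 TPM in HH14-B, so that HH19 lay between the HH14 libraries. On the TPM scale RAMP1 was therefore below CALCRL in HH14-A and above it at HH19, while in HH14-B their counting intervals overlapped (CALCRL 4.27 to 5.78 TPM). RAMP2 and RAMP3, which turn CALCRL into receptors of adrenomedullin, were low throughout. RAMP2 had 0.301 TPM at HH19, against 0.444 TPM in HH14-A and 0.545 TPM in HH14-B, and RAMP3 had 0.288 TPM at HH19, against 0.708 TPM in HH14-A and 0.592 TPM in HH14-B. CALCR, the calcitonin receptor, had 0.920 TPM at HH19, against 0.375 TPM in HH14-A and 0.464 TPM in HH14-B. CRCP, named as a CGRP receptor component and also known as a subunit of RNA polymerase III, had 57.5 TPM at HH19 and 63.0 TPM in the HH14 column. Of the other ligands of the family, ADM had 0.152 TPM at HH19 and 0.252 TPM in the HH14 column. IAPP had 0 reads at HH19, where 3 reads would be worth 0.128 TPM without the added read, against 1 read in HH14-A and 0 in HH14-B. In this ligand and receptor family RAMP1 and CALCA were called higher, and CALCRL and CRCP were within the limit. RAMP2, RAMP3, CALCR, ADM and IAPP were not measurable and so could not be called. Over all measurable genes 3.93% were called higher. RAMP1 and CALCA are among the 10 genes, whose choice used this same contrast, so nothing is read from these calls.

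In RefSeq's annotation of the GRCg7b assembly, the span of CALCA overlaps those of PDE3B, a phosphodiesterase, and CYP2R1, a vitamin D hydroxylase. No overlapping gene was listed for the other 8 precursors, and RAMP1 was not matched there. The library kit does not mark strand, so reads from CALCA and from a gene lying over it on the other strand cannot be told apart. PDE3B had 27.6 TPM at HH19 and 23.6 TPM in the HH14 column, and CYP2R1 had 3.48 TPM at HH19 and 2.30 TPM in the HH14 column. The table gives 1 value per gene, so calcitonin and CGRP transcripts were not separated.

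ADCYAP1, the precursor of PACAP, a peptide acting through cyclic AMP, was low but was called higher. With 0.537 TPM in the HH14 column it was measurable only through HH19, so a call could go only toward HH19. It had 3.24 TPM (2.25 to 4.54, 32 reads) at HH19, against 0 reads in HH14-A and 0.970 TPM (0.525 to 1.67, 11 reads) in HH14-B. In HH14-A, 3 reads would be worth 0.311 TPM without the added read. The fold was 6.04 over the HH14 column (log2 difference 1.47) and 3.34 over HH14-B. HH19 lay above both HH14 libraries. Among the 8 measurable genes, its difference was the smallest of those called, and the next below it was that of TAC1, at 0.72.

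**Figure D1:**
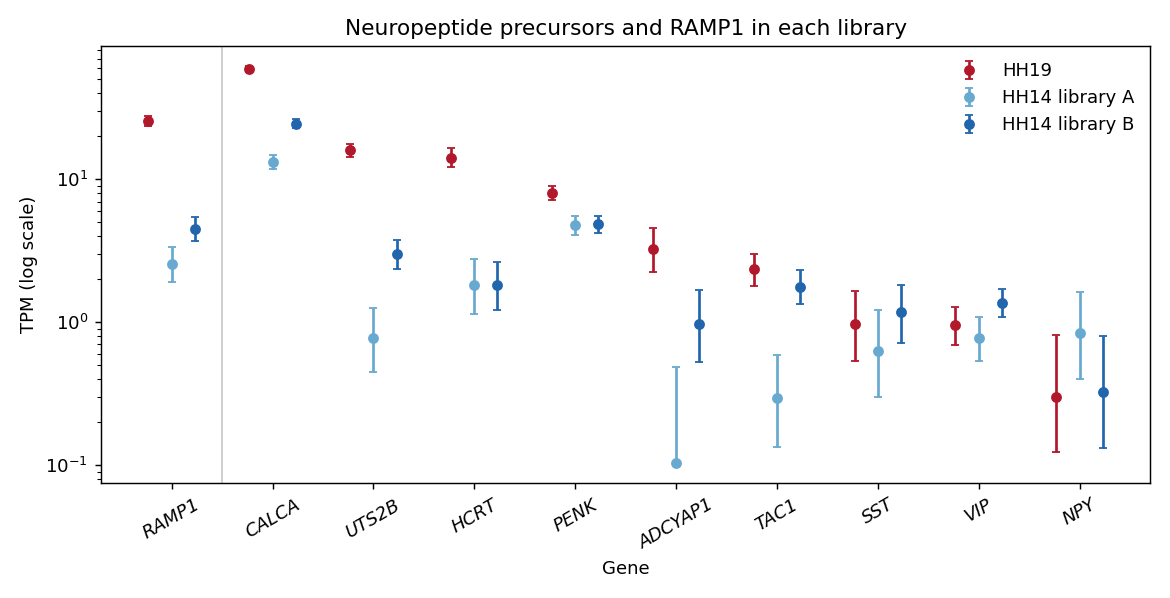
TPM (log scale) of RAMP1 and the 9 precursors in the HH19 library and in HH14-A and HH14-B, with exact 95% Poisson intervals of the reads. The HH19 interval lies above both HH14 intervals for RAMP1, CALCA, UTS2B, HCRT, PENK and ADCYAP1. For TAC1 the HH19 value lies above both HH14 intervals, but its interval overlaps that of HH14-B. At HH19, CALCA is highest at 59.1 TPM and NPY lowest at 0.299 TPM. The choice of the genes used this same contrast. The share of all genes with the HH19 interval above both HH14 intervals was not counted, so nothing is read from which genes had it.

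TAC1, the precursor of substance P and neurokinin A, stood apart by library more than by stage. It had 2.35 TPM (1.80 to 3.03, 58 reads) at HH19, against 0.294 TPM (0.135 to 0.591, 6 reads) in HH14-A and 1.77 TPM (1.33 to 2.31, 53 reads) in HH14-B. The HH19 interval overlapped that of HH14-B and not that of HH14-A. Its fold over the HH14 column was 2.28 in plain TPM, but the log2(TPM + 1) difference of 0.72 was under the limit for a call. HH14-B was 6.02 times as high as HH14-A.

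PENK, the precursor of the enkephalins, opioid peptides of spinal interneurons, had 8.07 TPM (7.19 to 9.03, 302 reads) at HH19. In HH14-A it had 4.80 TPM (4.11 to 5.57, 170 reads) and in HH14-B 4.84 TPM (4.22 to 5.52, 220 reads). As for HCRT, the HH14 libraries agreed, and HH19 lay above both. The fold of 1.67 over the HH14 column (log2 difference 0.64) was within the limit.

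SST, VIP and NPY were near or below 1 TPM at both stages. SST, the precursor of somatostatin, had 0.975 TPM (12 reads) at HH19, against 0.632 TPM (7 reads) in HH14-A and 1.17 TPM (18 reads) in HH14-B. VIP, the precursor of vasoactive intestinal peptide, had 0.957 TPM (42 reads) at HH19, against 0.774 TPM (32 reads) in HH14-A and 1.37 TPM (74 reads) in HH14-B. Both genes thus had their HH19 value between those of the HH14 libraries. NPY, the precursor of neuropeptide Y, had 2 reads at HH19 (0.299 TPM), against 7 reads in HH14-A (0.840 TPM) and 3 reads in HH14-B (0.328 TPM). For these 3 genes the HH19 intervals overlapped those of both HH14 libraries. That overlap concerns counting error only and is no test of a difference between the stages.

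By the size rule, 5 of the 10 genes were called higher at HH19 (UTS2B, RAMP1, HCRT, CALCA and ADCYAP1), 3 were within the limit (TAC1, PENK and VIP), and SST and NPY were not measurable. Over all genes, 3.93% of 11097 were called higher and 1.38% lower. The choice of the 10 used this same contrast, so nothing is read from their count. The same 5 genes differed by at least 1 on the log2(TPM + 1) scale from each HH14 library taken alone, which 2.15% of the 10702 recovered measurable genes did toward HH19 and 0.383% toward HH14. Among the 10080 measurable genes with a symbol, UTS2B had the 8th, RAMP1 the 9th and HCRT the 12th largest difference toward HH19, CALCA the 92nd and ADCYAP1 the 113th. In rank of abundance over all genes, with 1 the most abundant, HCRT was at 6850 at HH19 and at 10138 in the HH14 column, and UTS2B was at 6533 at HH19 and at 10115 in the HH14 column.

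**Figure D2:**
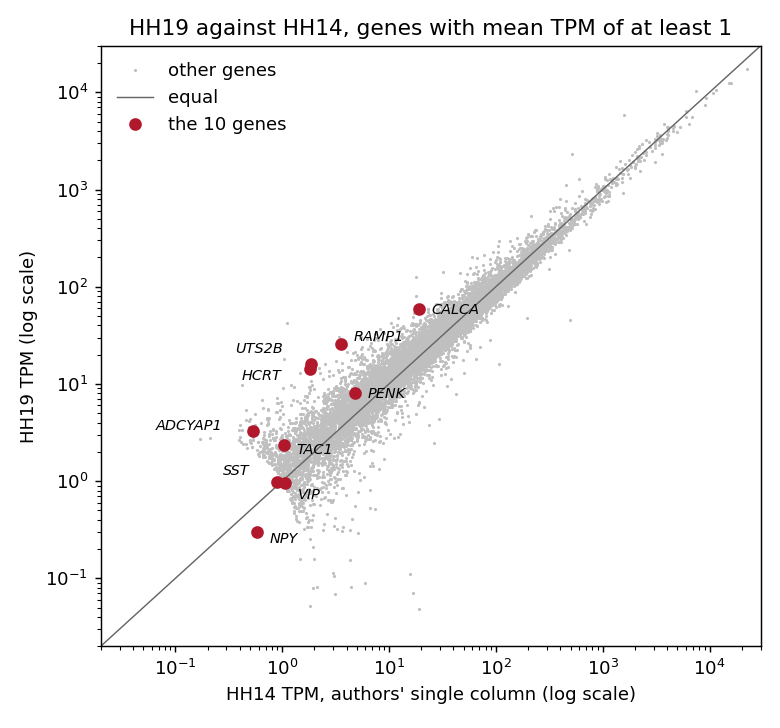
HH19 TPM against the TPM of the authors' single HH14 column, both on log scales, for measurable genes (grey) and the 10 genes (red, drawn whatever their mean), with the line of equal values. UTS2B, HCRT and RAMP1 lie at the upper edge of the cloud, PENK nearer to the line of equal values but above it, and SST and VIP close to the line.

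In order of level at HH19 the genes ran CALCA, RAMP1, UTS2B, HCRT, PENK, ADCYAP1, TAC1, SST, VIP and NPY. Counting intervals of neighbours in that order overlapped for UTS2B and HCRT, for ADCYAP1 and TAC1, and among SST, VIP and NPY, and the single HH19 library gives no spread beyond counting. The order in the HH14 column differed, with CALCA (18.9 TPM) followed by PENK (4.82 TPM), RAMP1 (3.54 TPM), UTS2B (1.88 TPM) and HCRT (1.83 TPM). PENK was thus the second most abundant of the 10 at HH14 and the fifth at HH19.

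The HH14 libraries were themselves unlike in these genes. HH14-B lay above HH14-A for 9 of the 10, NPY being the exception, and for 45.5% of the recovered measurable genes. Differences of 1 or more on the log2(TPM + 1) scale were found toward HH14-B in 2.77% of those genes and toward HH14-A in 4.44%, with UTS2B and TAC1 among those toward HH14-B. The intervals of the HH14 libraries did not overlap for UTS2B, RAMP1, CALCA, ADCYAP1 and TAC1. Overlap depends on the number of reads as well as on the ratio. HH14-B over HH14-A was 1.76 for RAMP1 and 1.77 for VIP, whose intervals overlapped narrowly. The share of all genes with separate HH14 intervals was not counted, so nothing is read from which genes had them. HCRT and PENK had HH14-B over HH14-A ratios of 1.00 and 1.01. For HCRT that ratio rests on 20 and 26 reads, with intervals of 1.15 to 2.78 TPM in HH14-A and 1.22 to 2.66 TPM in HH14-B. The sum of the neuron markers was highest at HH19 and lowest in HH14-A: 10 markers summed to 1272 TPM at HH19, 305 TPM in HH14-A and 615 TPM in HH14-B. That sum was 4.17 times as high at HH19 as in HH14-A, 2.07 times as high at HH19 as in HH14-B, and 2.01 times as high in HH14-B as in HH14-A. Of the 10, 9 were above both HH14 libraries at HH19, DCX being the exception, whereas 41.8% of the recovered measurable genes were above both and 23.7% below both. HH19 over HH14-B ratios above that of the neuron sum were those of HCRT (7.75), RAMP1 (5.66), UTS2B (5.34), ADCYAP1 (3.34) and CALCA (2.41), while PENK (1.67), TAC1 (1.33), NPY, SST and VIP had lower ones. Single neuron markers had HH19 over HH14-B ratios of 1.68 (TUBB3) to 4.63 (STMN2). By that measure ADCYAP1 and CALCA lay within the range of the markers, and HCRT, RAMP1 and UTS2B above it. HCRT, RAMP1 and UTS2B were chosen because their HH19 values were high, so nothing is read from their place above that range. SYT4, a vesicle gene given below and not among the markers, also lay above it (6.44). Over HH14-A the highest marker ratio was 15.0 (STMN2), above HCRT (7.77), RAMP1 (9.96) and CALCA (4.45) and below UTS2B (20.6). ADCYAP1 had 0 reads in HH14-A. The log2 difference of STMN2 from the HH14 column (2.76) was above those of UTS2B (2.56), RAMP1 (2.55) and HCRT (2.43). The part of neuron number in these differences was not tested.

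**Figure D3:**
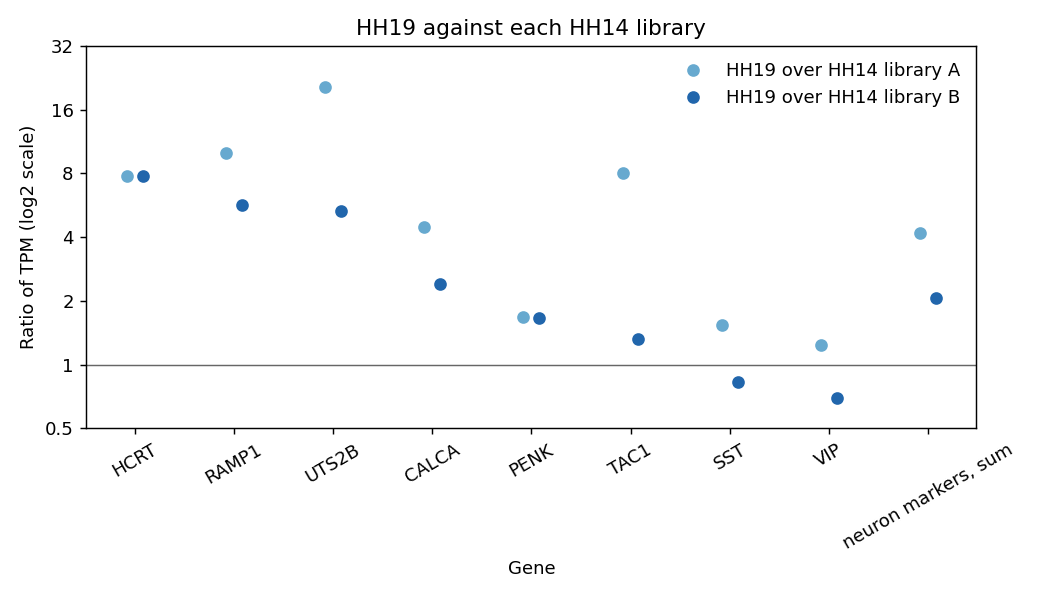
Ratio of HH19 TPM to the TPM of HH14-A and of HH14-B (log2 scale) for the genes with more than 3 reads in every library, and for the sum of 10 neuron markers. The ratios coincide for HCRT and PENK and spread for UTS2B (20.6 over HH14-A and 5.34 over HH14-B) and for TAC1.

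Markers of other tissues are given for the same libraries. Sensory ganglion and neural crest markers (8 recovered) summed to 55.3 TPM at HH19, 66.1 TPM in HH14-A and 58.9 TPM in HH14-B. Of the 5 measurable ones, named after their values were seen, 2 were called higher and 3 lower (3.93% and 1.38% over all measurable genes). Those higher were ISL1, also a motor neuron gene, and PRDM12, also a gene of spinal interneuron progenitors. Those lower were SNAI2, SOX10 and EYA1. With 0.337 TPM at HH19, EYA1 was measurable only through HH14, so a call could go only toward HH14. Against HH14-B alone its log2(TPM + 1) difference (-0.61) was within the limit. Endothelial markers (11) summed to 21.6 TPM at HH19, 23.7 TPM in HH14-A and 27.2 TPM in HH14-B. Blood cell markers (7) summed to 30.9 TPM at HH19, 16.9 TPM in HH14-A and 28.5 TPM in HH14-B, with HBE1 at 0 reads in all 3. Mesoderm markers (14) summed to 27.4 TPM at HH19, 70.7 TPM in HH14-A and 56.4 TPM in HH14-B, with HAND1, LHX9 and OSR1 at 0 reads at HH19. TNNC1 alone made up most of these sums, with 17.7 TPM at HH19, 52.1 TPM in HH14-A and 45.6 TPM in HH14-B. Of the 14, 5 were above both HH14 libraries at HH19. Of the 6 measurable ones, 1 was above both and 3 were below both (41.8% and 23.7% over the recovered measurable genes). By the size rule 0 were called higher and 3 lower (3.93% and 1.38% over all measurable genes). Of those lower, HAND1 (0.0812 TPM at HH19) and MEF2C (0.305 TPM at HH19) were measurable only through HH14. Their calls could thus go only toward HH14. Against HH14-B alone the log2(TPM + 1) difference of HAND1 (-0.57) was within the limit. Surface ectoderm markers (9) summed to 113 TPM at HH19, 188 TPM in HH14-A and 117 TPM in HH14-B, and notochord markers (3) to 11.1 TPM at HH19, 14.8 TPM in HH14-A and 11.4 TPM in HH14-B. Among these 6 lists, the blood cell markers were the one whose sum was highest at HH19 and lowest in HH14-A. HBG1 alone made up most of that sum, with 23.6 TPM at HH19, 11.0 TPM in HH14-A and 19.4 TPM in HH14-B. Of the 7 blood cell markers, 1 was above both HH14 libraries at HH19. The part of these tissues in the results was not tested.

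Genes closest to HCRT, UTS2B and RAMP1 in level were sought by the distance between log2(TPM + 1) values over the 2 columns of the table, which is a description from 2 points. HCRT was nearest to ISL1 (distance 0.24), LHX5 (0.24) and ROBO3 (0.25), UTS2B to ROBO3 (0.10), MYT1 (0.28) and ISL1 (0.33), and RAMP1 to C8orf46 (0.08), GPC3 (0.11) and EEF1A2 (0.13). ISL1 and LHX5 are LIM homeodomain genes of spinal neurons, and ROBO3 is a receptor of commissural axons. The HH14 libraries separated HCRT from its nearest genes, which was not particular to HCRT. ISL1 had 12.9 TPM at HH19, against 0.829 TPM in HH14-A and 3.68 TPM in HH14-B, and LHX5 had 12.9 TPM at HH19, against 0.131 TPM in HH14-A and 2.80 TPM in HH14-B, whereas HCRT was level between HH14-A and HH14-B. ROBO3, nearest to UTS2B, had 16.9 TPM at HH19, against 0.219 TPM in HH14-A and 3.78 TPM in HH14-B, where UTS2B had 0.775 and 2.98 TPM. RAMP1 had 2.57 TPM in HH14-A and 4.52 TPM in HH14-B. Of its nearest genes, C8orf46 had 1.20 and 5.45 TPM there, EEF1A2 0.848 and 6.48 TPM, and GPC3, closer to RAMP1, 3.18 and 4.62 TPM.

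Receptors of the 9 peptides were mostly scarce. Of 24 listed, 23 were in the table, 15 of them not measurable, and of the 8 others 1 was called higher and 0 lower. Over all genes, 11097 of 15916 were measurable, and 3.93% of those were called higher and 1.38% lower. UTS2R, the urotensin receptor, had 0 reads at HH19, 0 in HH14-A and 2 in HH14-B. At HH19, 3 reads of it would be worth 0.133 TPM without the added read. HCRTR2, an orexin receptor, had 3 reads at HH19 (0.0787 TPM), 9 in HH14-A and 6 in HH14-B, so at HH19 both precursors were far above these receptors. SSTR2, a somatostatin receptor, was the one called higher, with 20.0 TPM at HH19, against 5.39 TPM in HH14-A and 8.49 TPM in HH14-B. ADCYAP1R1, the PACAP receptor, had 10.4 TPM at HH19, against 7.51 TPM in HH14-A and 6.42 TPM in HH14-B. Of the other somatostatin receptors, SSTR4 had 3.85 TPM at HH19 and 3.05 TPM in the HH14 column, SSTR1 had 3.54 TPM at HH19 and 4.16 TPM at HH14, SSTR3 had 1.05 TPM at HH19 and 0.827 TPM at HH14, and SSTR5 had 0.0944 TPM at HH19 and 0.0637 TPM at HH14. NPY5R had 4.89 TPM at HH19 and 4.02 TPM in the HH14 column, and NPY2R had 2.33 TPM at HH19, against 6.36 TPM in HH14-A and 2.25 TPM in HH14-B. Both are receptors of neuropeptide Y. Of the other NPY receptors, NPY4R had 0.270 TPM at HH19 and 0.145 TPM at HH14, NPY1R had 0.137 TPM at HH19 and 0.169 TPM at HH14, and NPY6R had 0 reads in every library. OPRM1, the mu opioid receptor, had 1.28 TPM at HH19 and 1.90 TPM in the HH14 column, the delta receptor OPRD1 had 0.790 TPM at HH19 and 0.468 TPM at HH14, and the kappa receptor OPRK1 had 0 reads at HH19. VIPR1 had 1.14 TPM at HH19 and 0.417 TPM in the HH14 column, VIPR2 had 0.191 TPM at HH19 and 0.441 TPM at HH14, and the tachykinin receptors TACR1, TACR2 and TACR3 had 0.218, 0.216 and 0.0568 TPM at HH19, against 0.394, 0.120 and 0.0732 TPM in the HH14 column.

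In the wider list of peptide receptors, 3 of 17 measurable genes were called higher and 2 lower, with a median log2 difference of 0.23, beside 3.93% higher, 1.38% lower and a median of 0.05 over all measurable genes. Those higher were SSTR2, CRHR1 (6.41 TPM at HH19, 1.48 TPM in the HH14 column), a receptor of corticotropin-releasing hormone, and OXTR, the oxytocin receptor (2.53 TPM at HH19, 0.646 TPM at HH14). The lower ones were EDNRB, an endothelin receptor of neural crest cells (2.54 TPM at HH19, 8.10 TPM at HH14), and NPR3, the natriuretic peptide clearance receptor (4.23 TPM at HH19, 11.4 TPM at HH14). Against HH14-B alone, on the log2(TPM + 1) scale, OXTR (1.04 TPM there, difference 0.79) and NPR3 (6.09 TPM there, difference -0.44) were within the limit. OXTR falls outside the naming rule and was added after its value was seen. It was also under 1 TPM in the HH14 column and so was measurable only through HH19. CRHR2 (18.4 TPM at HH19, 13.0 TPM at HH14) was the most abundant within the limit, followed by ADCYAP1R1.

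Among 31 other peptide precursors in the table, 22 were not measurable, whereas 11097 of all 15916 genes were measurable. Of the 9 others 1 was called higher and 1 lower, with a median of 0.24 (3.93% and 1.38% over all measurable genes). PNOC, the precursor of nociceptin, was the higher one, with 5.44 TPM (63 reads) at HH19, against 1 read in HH14-A and 1.75 TPM (24 reads) in HH14-B. With 0.963 TPM in the HH14 column PNOC was measurable only through HH19. CBLN1, the cerebellin precursor, was lower, with 5.79 TPM at HH19, against 24.3 TPM in HH14-A and 18.3 TPM in HH14-B. NPB, the neuropeptide B precursor, was the most abundant, with 80.0 TPM at HH19, against 39.8 TPM in HH14-A and 73.2 TPM in HH14-B. PTHLH, the parathyroid hormone-related peptide, had 11.4 TPM at HH19 and 14.3 TPM in the HH14 column.

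The genes that process and store peptides were more widely expressed. Of 26 measurable members, 5 were called higher and 0 lower, with a median of 0.49, against shares of 3.93% higher and 1.38% lower among all measurable genes and their median of 0.05. CHGA, chromogranin A of dense-core vesicles, had 81.0 TPM at HH19, against 7.94 TPM in HH14-A and 27.9 TPM in HH14-B. SYT4, a synaptotagmin of such vesicles, had 6.32 TPM at HH19, against 0.815 TPM in HH14-A and 0.980 TPM in HH14-B. With 0.898 TPM in the HH14 column SYT4 was measurable only through HH19. SNAP25, a release SNARE also among the neuron markers, had 5.66 TPM at HH19, against 1.30 TPM in HH14-A and 1.77 TPM in HH14-B. SCG5, the chaperone of the convertase PCSK2, had 25.7 TPM at HH19, against 11.4 TPM in HH14-A and 10.1 TPM in HH14-B. The fifth was PTPRN, a dense-core vesicle protein, with 5.27 TPM at HH19, against 1.09 TPM in HH14-A and 2.59 TPM in HH14-B. Its log2(TPM + 1) difference from HH14-B alone (0.81) was within the limit, and it was named after its value was seen. RAB2A (390 TPM at HH19, 336 TPM at HH14) and PTPRN2 (96.0 TPM at HH19, 63.1 TPM at HH14) were the most abundant within the limit. The enzymes, named after their values were seen, did not differ by 2-fold: the convertase PCSK2 had 1.35 TPM at HH19 and 1.10 TPM in the HH14 column, PCSK1 0.396 TPM at HH19 and 0.516 TPM at HH14, the carboxypeptidase CPE 8.91 TPM at HH19 and 6.82 TPM at HH14, and the amidating enzyme PAM 23.3 TPM at HH19 and 32.9 TPM at HH14. Of 20 measurable genes of cyclic AMP and G protein signalling, 0 were called higher or lower, with a median of 0.14. GNAI2 (298 TPM at HH19, 248 TPM at HH14) and GNA11 (131.5 TPM at HH19, 89.5 TPM at HH14), G protein subunits, led them at HH19.

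**Figure D4:**
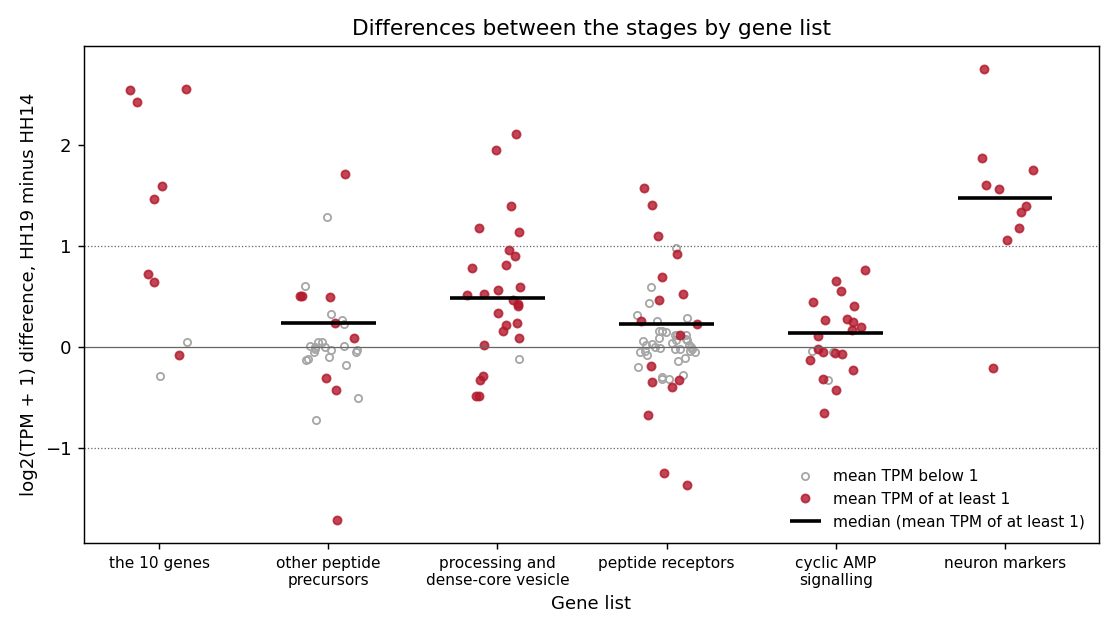
Difference of log2(TPM + 1), HH19 minus the HH14 column, for each gene of 6 lists, with filled points for genes averaging 1 TPM or more, open points for the others, and a bar at the median of the filled points for every list but the 10 genes. Dotted lines mark differences of 1 and -1. Peptide receptors (median 0.23) and cyclic AMP genes (0.14) lie around 0, and neuron markers (1.48) lie above 1 except for DCX.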

How the data were processed

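RNA-seq was carried out on 1 HH19 and 2 HH14 libraries, whose stage the labels give. The authors deposited TPM per Ensembl gene in 1 table with 1 column per stage, per the file header. The submitters' processing notes name the galGal4 build and the tools TopHat2, SAMtools, FastQC and DESeq2. Their roles and versions, the counting tool and the strand setting are not stated in what was used here. Deposited TPM values of 15520 genes (97.5%) could be written as whole reads plus 1, times a constant of its library, divided by a whole length in bases, with HH14 the mean of 2 libraries. For each gene, lengths from 20 to 30000 bases were searched for whole reads in all 3 libraries at the printed precision, and the shortest was kept if under 0.001 solutions were expected by chance. If length and the values of reads plus 1 share a factor, the true values of reads plus 1 are a multiple. TPM would be unchanged, but the printed reads, including 0, would be too low and the intervals would differ. The steps were also run on simulated data built from the recovered genes and their recovered lengths. That run could not test the genes not recovered, or whether the shortest length is the true one, so nothing is read from it. Values were compared as log2(TPM + 1) with a pseudocount of 1, without tests, and where rows shared a symbol the one with the highest mean was used. Gene spans of RefSeq's GRCg7b annotation were used to list overlapping genes, and no coordinates are given since the build differs. The genes and lists were chosen with earlier results of these data known. Named were all 10 genes, their receptors and the RAMP family, in each list the 4 largest differences past the limit and the 2 most abundant genes within it, and the 3 nearest genes to HCRT, UTS2B and RAMP1. Marker lists were given as totals, and any marker named singly was chosen after its value was seen. The alternatives tried were leaving out HH14-A or HH14-B, quantile normalization, median-ratio scaling, a level limit of 5 TPM or none, and pseudocounts of 5 and 0.1. Tools were scipy 1.17.1, pandas 2.3.3, numpy 2.4.6 and matplotlib 3.10.9 under Python 3.11.15.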

Additional observations from a re-analysis of the deposited data

How the results depend on the processing

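Among the 10 genes the count called higher was 5, and 4 to 6 under the 8 alternatives. ADCYAP1 was no longer called at a pseudocount of 5 (log2 difference 0.57) or with a level limit of 5 TPM, and TAC1 was called at a pseudocount of 0.1 (1.11) and against HH14-A alone (1.37). HCRT, UTS2B, RAMP1 and CALCA were called under all 8. SST and VIP, never called, turned sign with the library: SST was at -0.14 against HH14-B and 0.27 against HH14-A, and VIP at -0.28 and 0.14. Over all genes, 436 were higher and 153 lower. These counts were 149 and 46 at a pseudocount of 5, and 261 and 85 with the limit of 5 TPM. At a pseudocount of 0.1, 279 were lower. Against a single HH14 library, 364 to 926 were higher and 78 to 364 lower, more of both against HH14-A. Quantile normalization gave 300 higher and 220 lower, so the share of calls toward HH19 was 57.7%, beside 74.0%. Other precursors called higher were 0 at a pseudocount of 5 and with the 5 TPM limit, and 2 without a limit. Processing genes called higher were 1 at a pseudocount of 5 and 2 with the 5 TPM limit. Peptide receptors called higher were 5 at a pseudocount of 0.1, 1 at a pseudocount of 5 and 1 with the 5 TPM limit, and those lower were 0 at a pseudocount of 5 and 1 to 3 against a single HH14 library. Cyclic AMP genes called higher were 1 at a pseudocount of 0.1, and those lower 0 to 1 against a single HH14 library. Apart from the limits set by each alternative itself, the cause was not tested. No paired analysis was possible because HH19 has 1 library.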

Other observations

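Both partners of 2 further peptide systems lay above both HH14 libraries at HH19, at low levels. Of the recovered measurable genes taken singly, 41.8% lay above both, a share that covers neither pairs nor genes under the level limit. The share of pairs was not counted. Other pairs lay above both too, such as ADCYAP1 with its receptor gene ADCYAP1R1. The 2 systems were picked after their values were seen, and no test was run. OPRL1, the nociceptin receptor, had 1.87 TPM (135 reads) at HH19, against 0.174 TPM (11 reads) in HH14-A and 0.735 TPM (64 reads) in HH14-B, beside its ligand gene PNOC described above. OXT, the oxytocin precursor, which is called mesotocin in birds, had 15 reads at HH19 (2.16 TPM), against 0 reads in HH14-A and 3 reads in HH14-B. Its receptor gene OXTR had 31 reads at HH19, against 2 in HH14-A and 15 in HH14-B. OPRL1 and OXT averaged less than 1 TPM over the 3 libraries, so they were not measurable. All 4 genes of the 2 systems were lowest in HH14-A, with 0 reads there for OXT, 1 for PNOC, 2 for OXTR and 11 for OPRL1. The share of all genes lowest in HH14-A was not counted, so nothing is read from this. The sum of the neuron markers was also lowest in HH14-A. Of those 10 markers 8 were higher in HH14-B than in HH14-A, while DCX and ELAVL4 were lower. The part of neuron number in these values was not tested.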
